A study of Oryza sativa with 15 samples.

Results

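The reciprocal crosses between the japonica rice line Yu6 and the indica line Wufeng were examined for the share of transcripts that came from the mother's allele in the endosperm, the nourishing tissue of the grain. YW had Yu6-A as mother and Wufeng-B as father, and WY had Wufeng-A as mother and Yu6-B as father. The A lines are cytoplasmic male sterile, and the B lines are fertile maintainers with the same nuclear genome, so each hybrid carried the cytoplasm of its mother's A line and the effects of cytoplasm and mother cannot be told apart. Endosperm was taken 5 days after fertilization, with 20 to 30 endosperms pooled per library, and each cross had 2 libraries. A second cross set, LR-RL, paired the japonica line Liuqianxin with the indica line Rongfeng in the same way, with 3 libraries per cross, LR having the japonica mother. The inbred crosses were not used here.

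For every SNP between the parents, the deposited table gives reads with the maternal and with the paternal allele in each cross, and the replicate libraries are pooled. Reads were summed over the SNPs of a locus, and a locus was kept when it had at least 20 reads in YW and at least 20 in WY. This kept 11443 of 12378 loci in the table and 58172 of 59107 SNPs. Loci kept in either cross set numbered 12803, and 10030 were kept in both sets. The 41 loci whose smaller read total was exactly 20 had medians of 76.7% maternal in YW and 60% in WY, and the 59 loci left out at 19 reads had medians of 73.7% in YW and 63.2% in WY. All SNPs together had 29149713 reads in YW and 29302004 in WY, with a median of 387 reads per kept locus in YW and 265 in WY. The median locus carried 3 SNPs and 1836 loci (16.04%) carried 1 SNP.

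Endosperm forms when the central cell, which brings more than a single maternal genome, is fertilized by a sperm cell, so a locus read equally from every copy is expected at 2 maternal to 1 paternal, a maternal share of 66.7%. Imprinted genes depart from this toward the same parent in both directions of a cross. In plants, DNA demethylation in the central cell and silencing by Polycomb complexes are known to mark the parental alleles differently, and maternally expressed and paternally expressed genes have both been described in rice endosperm. A difference between the strains' own alleles behaves otherwise, since it follows the strain and raises the maternal share in the cross where that strain is the mother. A locus above the null share in both crosses is called maternal here, below it in both paternal, above it in YW and below it in WY japonica, and the reverse indica. Fewer transcripts from an allele and fewer cells that transcribe it cannot be told apart in these bulk samples.

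The typical locus lay above 2:1 in YW and below it in WY. The median maternal share was 75.1% in YW (95% interval from the ranked loci 74.9 to 75.3) and 62.9% in WY (62.7 to 63.2). The middle of the distribution was also narrower in YW, with quartiles of 68.9% and 81.2%, against 51.9% and 69.6% in WY. In odds, the median locus had 3.01 maternal reads per paternal read in YW and 1.70 in WY. Shares above 66.7% were found at 9202 loci in YW (80.4%) and 4048 loci in WY (35.4%). Both crosses exceeded 66.7% at 2775 loci (24.3%), YW alone at 6427 (56.2%), WY alone at 1273 (11.1%) and neither at 968 (8.46%). YW exceeded WY at 8911 loci (77.9%), and the median difference over all loci was 11.7 percentage points. Replicates are pooled in the table, so the spread between libraries could not be set against this difference.

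Markers of tissues around the endosperm gave little to measure. The maternal seed tissues (nucellus, seed coat and pericarp) are wholly maternal in genotype, and 0 of 6 marker loci of these tissues had a listed SNP here. A locus without a listed SNP gives no allele counts, whatever its expression. The 3 loci annotated for photosystem or chlorophyll binding summed to 212 reads in YW, 82.5% of them maternal, and 180 reads in WY, 63.3% of them maternal. Their shares ranged from 70.2% to 96.0% in YW and from 33.3% to 69.0% in WY, and 0 of the 3 had a parental call by the tests described next. The embryo marker had no listed SNP either. Of 3 aleurone and embryo markers, 2 were indica against the cross medians. Of 4 starchy endosperm markers, the 2 with counts were indica against the medians and japonica against 2:1. The 21 glutelin and prolamin loci, also starchy endosperm markers and some with shared SNPs, were 6 maternal, 1 paternal, 4 japonica and 8 indica against the medians. The part of tissues around the endosperm in the higher shares of YW was not tested.

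Set against each cross's own median, more loci sat on opposite sides of the medians in the 2 crosses (65.2%) than on the same side (34.8%). Both shares lay above the cross medians at 1991 loci and both below at 1992, while 3730 loci were above in YW alone and 3730 above in WY alone. Centring on the medians fixes the near equality within each of these pairs of counts, so it says nothing of the balance between the parents. The scatter of the shares shows this as a band that runs from upper left to lower right, with dense corners at its ends.

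**Figure D1:**
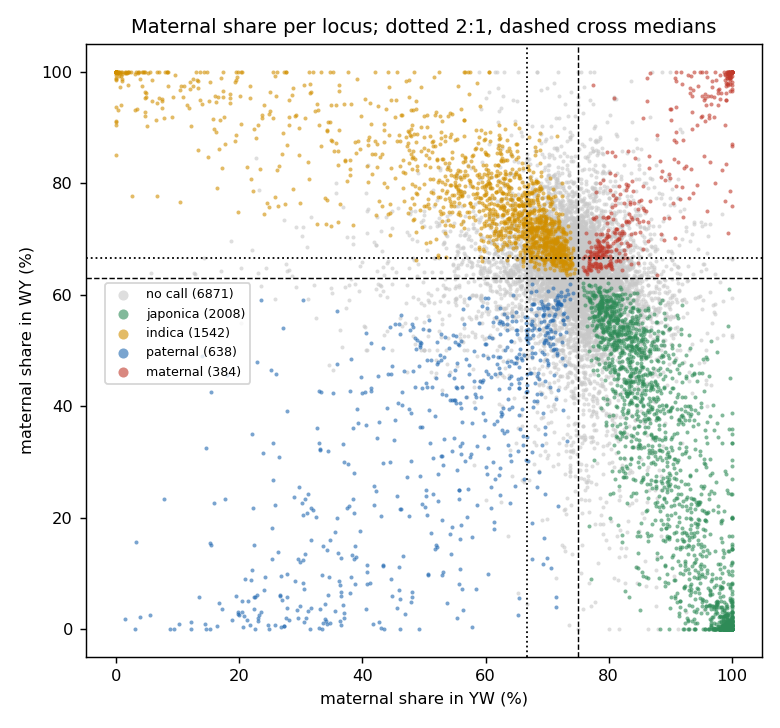
Maternal share of each of 11443 loci in YW (x axis, %) and in WY (y axis, %), coloured by its call against the cross medians, with counts in the legend; dotted lines mark 2:1 and dashed lines the medians of 75.1% in YW and 62.9% in WY. The japonica calls fill the lower right, the indica calls the upper left, and the paternal cloud lies further from the left edge than from the bottom edge.

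An exact binomial test, two-sided, was run on the counts of each cross. Each locus took the larger p of its 2 crosses, and the 11443 values were adjusted by the Benjamini-Hochberg method. The tests cover counting error only and compare these pooled libraries. Against 2:1, 685 loci (5.99% of those tested) were called maternal, 427 (3.73%) paternal, 3710 (32.4%) japonica and 599 (5.23%) indica. Against the cross medians, the same test called 384 (3.36%) maternal, 638 (5.58%) paternal, 2008 (17.5%) japonica and 1542 (13.5%) indica. The choice of null turned the parental balance round, since maternal calls outnumbered paternal ones against 2:1 and the reverse held against the medians. Of the 685 maternal calls against 2:1, 242 were maternal against the medians, 148 were indica and 295 had no call. Of the 427 paternal calls, 391 were paternal against both. A further 82 loci were japonica against 2:1 and paternal against the medians, and 28 were japonica against 2:1 and maternal against the medians.

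Strong calls also lay at least 5 times from the null odds in both crosses, which against 2:1 means a maternal share of at least 90.9% or at most 28.6%. Against 2:1 they numbered 111 maternal (0.97%), 70 paternal (0.612%), 913 japonica (7.98%) and 190 indica (1.66%). Against the medians they numbered 101 maternal (0.883%), 124 paternal (1.08%), 804 japonica (7.03%) and 226 indica (1.98%). Strong under both nulls were 99 maternal, 69 paternal, 804 japonica and 190 indica loci. Strong calls that followed the strain therefore outnumbered those that followed the parent. The cause of these calls was not tested.

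At paternal loci, the maternal allele kept a higher share in YW than in WY. The 99 maternal loci strong under both nulls had medians of 99.4% maternal in YW and 99.3% in WY, and 21 of them had no paternal read in YW and 30 none in WY. The 69 paternal loci had a median maternal share of 21.6% in YW, with a range of 1.43% to 28.1%, and 3.10% in WY, with a range of 0% to 23.3%. Of these 69 loci, 0 lacked maternal reads in YW and 8 lacked them in WY. The cut-offs of both nulls together admit at most 28.6% in YW and 25.3% in WY. Not every locus had this order, as the chromatin remodeller gene LOC_Os01g65850 had 7.73% in YW and 23.3% in WY. Among all 907 loci below 10% maternal in WY, whatever their call, 746 exceeded 90% in YW, 110 were below 50%, and 51 lay between. The 110 loci had a median of 27.9% in YW (quartiles 21.4 and 36.4) and 3.06% in WY (0.989 and 5.88). These loci were chosen on the WY share, which sets part of this order. Conversely, of 144 loci below 10% maternal in YW, 132 exceeded 90% in WY, 8 were below 50% and 4 lay between. The 8 loci had medians of 4.70% in YW and 1.96% in WY. Both crosses were below 10% at 6 loci and both above 90% at 116 loci.

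**Figure D2:**
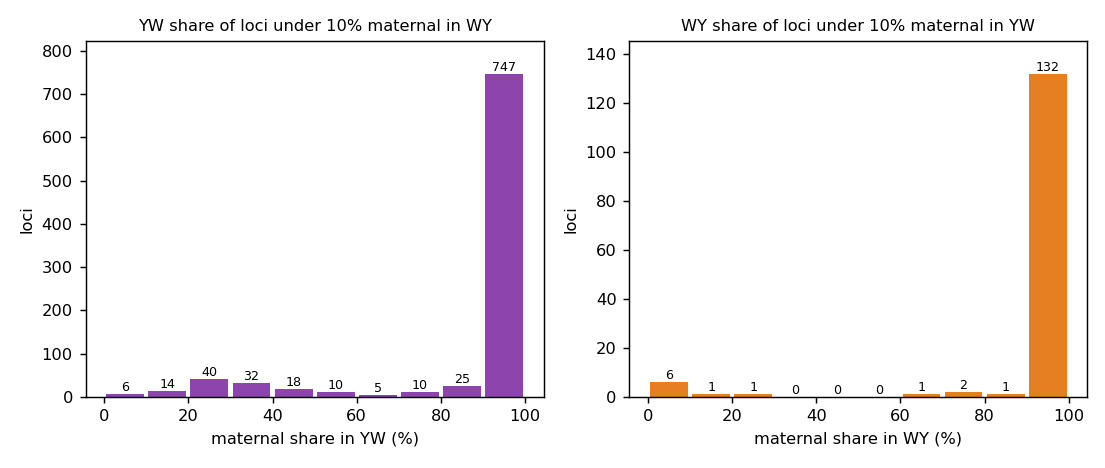
Left, number of loci by maternal share in YW (x axis, %) among the loci below 10% maternal in WY; right, number of loci by maternal share in WY among the loci below 10% maternal in YW. Counts stand above the bars: the left panel has a second group with 40 loci in the bin from 20% to 30%, and the right panel has at most 6 loci in any bin below 90%.

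The leading maternal loci had almost no paternal reads in either direction. The F-box gene OsFBX420 (LOC_Os11g15620, chromosome 11, SNPs from 8860793 to 8861161), of the family of adaptors that bring proteins to ubiquitin ligases, had 431 maternal of 432 reads in YW and 108 of 108 in WY (adjusted p = 2.09e-21 against the medians, exact binomial test). Its count of 0 paternal reads in WY allows a share of up to 2.78%. LOC_Os08g28960 on chromosome 8 (17722239 to 17724922) had 2620 maternal of 2629 reads in YW and 112 of 112 in WY. LOC_Os08g27870, annotated as an early flowering protein (16994606 to 16994840), had 8203 of 8233 reads in YW and 6458 of 6502 in WY. The peroxidase gene LOC_Os07g48030 (chromosome 7, 28678515 to 28679815) had no paternal read among 107 in YW and 52 in WY. The rule that named these loci selects such departures, so their shares near 100% at shallow and deep counts alike describe the choice.

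The leading paternal loci included several at which both crosses were nearly free of maternal reads. The protein phosphatase 2C gene LOC_Os04g42260 (chromosome 4, 25003604 to 25004692), of a family that removes phosphate from proteins, had 3 maternal of 77 reads in YW and 1 of 46 in WY (adjusted p = 9.28e-18 against the medians, exact binomial test). LOC_Os09g16520 (chromosome 9, 10131492 to 10132568), with a cytochrome b5-like heme-binding domain, had 5 of 91 reads in YW and 5 of 197 in WY. At the phosphoenolpyruvate carboxylase gene LOC_Os01g02050 (chromosome 1, 562290 to 572064), of carbon fixation into organic acids, the maternal allele had 58 of 432 reads in YW and 19 of 336 in WY. Its 4 SNPs ranged from 1.46% to 40.4% maternal in YW, so its summed share joins unlike SNPs. A retrotransposon locus on chromosome 8, LOC_Os08g01690, had only 4 maternal of 33 reads in YW and 0 of 24 in WY, which allows up to 12.5%.

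A group of 3 NAC transcription factor genes on chromosome 11 was paternal under both nulls. NAC proteins are plant transcription factors that share the no apical meristem domain. LOC_Os11g31360 (18301380 to 18303465) had 240 maternal of 16824 reads in YW and 29 of 1670 in WY. LOC_Os11g31340 (18294478 to 18296883) had 988 of 8083 reads in YW (12.2%) and 61 of 4945 in WY (1.23%). LOC_Os11g31330, which was chosen after its values had been seen and was strong against the medians alone, had a maternal share of 34.1% of 367063 reads in YW and 1.49% of 732426 reads in WY. The maternal share thus differed between these genes by more than their counting error in YW and stayed below 2% at all of them in WY. Reads of such similar neighbours can align to more than a single locus, and their part was not tested.

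Some loci that were strong under both nulls lay beside each other. Within 50 kb, 7 pairs of maternal and 5 pairs of paternal loci were found, and no group was larger than 2. The paternal pairs include the NAC genes LOC_Os11g31340 and LOC_Os11g31360 described above. How often kept loci in general lie this close was not counted. The maternal pairs included the histone H3 genes LOC_Os12g22650 and LOC_Os12g22680, whose product packs DNA, at 96.3% and 96.8% in YW and 91.7% and 98.3% in WY. They also included the prolamin storage protein genes PROLM16 (LOC_Os05g26720) and PROLM17 (LOC_Os05g26750), at 95.7% and 95.5% in YW and 91.1% and 94.97% in WY. The pollen allergen-like genes POEI14 (LOC_Os10g05990) and POEI15 (LOC_Os10g06000) spanned 99.2% to 99.5% in YW and 97.7% to 98.96% in WY. The paternal pairs included an ADP-ribosylation factor gene and a DnaJ chaperone gene on chromosome 3 (LOC_Os03g27450 and LOC_Os03g27460), which spanned 24.0% to 27.8% maternal in YW and 3.84% to 7.01% in WY. A phosphatase gene already named, LOC_Os04g42260, lay beside the transferase gene LOC_Os04g42250, the pair spanning 3.90% to 23.5% in YW and 2.17% to 3.10% in WY.

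At many japonica loci, reads of the Wufeng allele were at 0. Among the 804 japonica loci strong under both nulls, 256 had no paternal read in YW and 307 had no maternal read in WY. The flavin-containing monooxygenase gene LOC_Os04g14710 (chromosome 4, 8268120 to 8268397) had 890 maternal of 890 reads in YW and 0 of 248 in WY, which allows up to 1.21%. An NBS-LRR disease resistance gene, LOC_Os11g29050, of the plant immune receptor class, had 524 of 524 reads in YW and 0 of 326 in WY. The potassium channel gene LOC_Os03g28120 had 544 of 544 reads in YW and 1 of 617 in WY. All of these reads were therefore of the Yu6 allele, apart from 1 read.

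Indica loci were the mirror image and fewer. The CACTA transposon locus LOC_Os02g53020 (chromosome 2, 32447947 to 32449513), with 46 SNPs, had 2 maternal of 1112 reads in YW and 3600 of 3603 in WY. The prolamin gene PROLM29 (LOC_Os12g17010, chromosome 12, 9734089 to 9734296) had 26 of 38524 reads in YW and 146558 of 146704 in WY. An ABC transporter gene, LOC_Os01g50100, of membrane pumps driven by ATP, had 2 of 439 reads in YW and 1666 of 1666 in WY. The ZmEBE-1-like gene LOC_Os11g11620 had 4 of 864 reads in YW and 1183 of 1184 in WY. An allele that is absent from a parent, an allele that is not transcribed and an allele whose reads do not align give the same counts, and these cannot be told apart.

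Across the chromosomes, chromosome 9 stood apart. Over its 627 loci the median was 79.7% in YW (95% interval 78.5 to 81.5) but 55.0% in WY (51.6 to 57.7), while the medians of the other 11 chromosomes ran from 74.1% to 76.0% in YW and from 61.9% to 64.1% in WY. In LR-RL, chromosome 9 had medians of 66.9% in LR and 64.5% in RL, and the range over all 12 chromosomes was 66.5% to 67.7% in LR and 62.1% to 64.5% in RL. Japonica calls against the medians took 41.1% of chromosome 9 loci, against 12.2% to 23.4% on the other 11 chromosomes, and strong ones took 28.9%, against 3.38% to 11.8%. Without the loci of the blocks described next, 20.7% of the remaining chromosome 9 loci were japonica calls and the chromosome medians were 75.5% in YW and 62.2% in WY. Against 2:1, the japonica calls took 53.0% of chromosome 9 loci and 31.2% of the loci elsewhere.

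**Figure D3:**
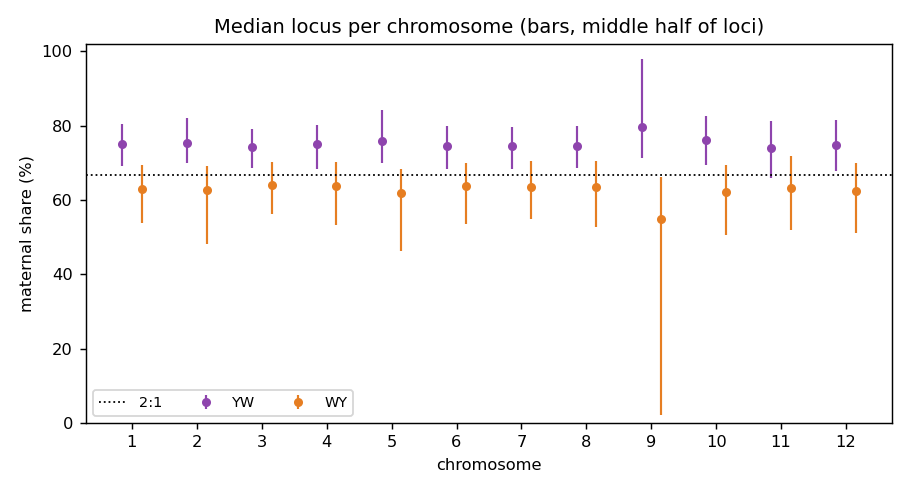
Maternal share (y axis, %) by chromosome (x axis) in YW and WY; points are medians over loci and bars span the quartiles, with the dotted line at 2:1. On chromosome 9 the lower quartile of WY falls to 2.19% and the upper quartile of YW reaches 98.1%, while the other medians lie close to 75.1% in YW and 62.9% in WY.

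Parental calls were spread over all 12 chromosomes. Maternal calls against the medians took 2.23% of the loci of chromosome 9 at the low end and 5.32% of chromosome 12 at the high end, and paternal calls 2.55% and 7.48% on the same chromosomes. The chromosome 9 shares include the loci of the blocks described below, which were chosen for strong japonica calls. Parental shares of chromosome 9 without those loci were not computed. Chromosome 12 had 32 maternal and 45 paternal calls among 602 loci, 10 and 14 of them strong. Chromosome 3, with 1597 loci, had only 3 strong maternal calls (0.188% of its loci, the lowest of any chromosome) beside 10 strong paternal ones. Its leading maternal locus was LOC_Os03g15990, annotated EDM2, with 119 of 119 reads in YW and 41 of 42 in WY. The leading paternal locus of chromosome 2 was the AT hook gene LOC_Os02g39920, of a DNA-binding motif, with 283 of 1690 maternal reads in YW and 45 of 977 in WY. On chromosome 6 it was the CAMK-class protein kinase gene LOC_Os06g35160, with 100 of 452 reads in YW and 31 of 295 in WY.

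In windows of 2 Mb with at least 10 kept loci, the median of YW exceeded that of WY throughout, and the largest differences lay at a few places. Over 185 windows, the difference between the medians of YW and WY had a median of 11.5 percentage points and quartiles of 9.75 and 14.3. No window was below 0, and the lowest, on chromosome 11 from 10 to 12 Mb, was 0.837 points. The difference exceeded 30 points in 8 windows and 50 points in 3. The window of chromosome 9 from 18 to 20 Mb had medians of 98.8% in YW and 0.430% in WY over 123 loci, and LR and RL both had 66.7% there over 41 loci. Chromosome 5 from 28 to 30 Mb had 92.8% in YW and 8.64% in WY, against 68.1% in LR and 64.4% in RL. Chromosome 9 from 20 to 22 Mb had 95.4% in YW and 21.1% in WY, against 67.6% in LR and 64.8% in RL. A window on chromosome 4 from 6 to 8 Mb was the only 1 of the 8 with a like contrast in the other set, at 84.3% in YW and 41.8% in WY and at 77.7% in LR and 36.8% in RL.

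Runs of loci read mostly from the Yu6 allele formed blocks. A block was defined, after the data had been seen, as at least 5 strong japonica loci against 2:1 among neighbouring kept loci with no more than 1 other locus between them. This gave 12 blocks on chromosomes 2, 5 and 9, with 288 loci (2.52% of those kept) over 6.37 Mb. They held 268 of the 913 strong japonica loci (29.4%). The median share was 99.2% in YW and 0.307% in WY inside the blocks, and 74.9% in YW and 63.3% in WY outside. The inside shares describe what the rule chose. The WY median was under 1% in 9 blocks, and 3.96%, 6.88% and 10.5% in the other blocks. With all reads of a block summed, the WY share was at least 10% in 4 blocks and reached 20.02%, so Wufeng reads were not absent from every block. Whether the Yu6 and Wufeng plants of both crosses differed at the listed SNPs throughout these blocks was not tested. If they did not, these values, and the chromosome 9 medians that include them, are not shares of the alleles of a hybrid. The same rule found 0 indica blocks in YW-WY and 0 japonica blocks in LR-RL.

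The block with most loci lay on chromosome 9 from 18783291 to 20864250 in the table's own coordinates (the sources used here name no genome build). Over 2.08 Mb it held 141 loci, 135 of them strong japonica. Shares changed between neighbouring loci at its edges. The rule starts and ends a block at a strong japonica locus, which sets part of this contrast. The 5 loci before the block had shares of 66.7% to 82.9% in YW and 64.4% to 87.2% in WY, and the first 3 loci inside had 98.3% to 99.7% in YW and 0% to 0.475% in WY. At the far side, the last 3 loci inside had 98.9% to 99.8% in YW and 0% to 0.468% in WY, and the 5 loci after the block had 58.3% to 82.7% in YW and 36.9% to 72.9% in WY. The nearest of these 5, LOC_Os09g36210, was itself a japonica call, at 82.7% in YW and 36.9% in WY. Among the loci of this block with most reads, the ribosomal protein L7Ae gene LOC_Os09g32976 had 26050 maternal of 26369 reads in YW and a share of 0.534% in WY. The transketolase gene LOC_Os09g33500, of the pentose phosphate pathway, had 11848 of 11939 reads in YW and 0.293% in WY.

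The next by number of loci lay on chromosome 5 from 28827048 to 29575288 (0.748 Mb), with 45 strong japonica loci among 49. It began at the DNA repair gene LOC_Os05g50290, with 712 of 712 maternal reads in YW and 3 of 732 in WY. The adjacent transporter gene outside it, LOC_Os05g50280, had 82.1% in YW and 61.8% in WY. Its near edge was not clean, since the protein kinase gene LOC_Os05g50190, also among the 5 loci before it, had 99.5% in YW and 0% in WY, and the 11 flanking loci had medians of 89.5% in YW and 25.9% in WY. The only kept locus beyond its far end, the zinc finger gene LOC_Os05g51830, had 72.3% in YW and 67.8% in WY. Smaller blocks of chromosome 5 ran from 24076207 to 24156350, with 12 of 12 loci strong, and from 27936470 to 27988459, with 6 of 6. On chromosome 2 the block with most loci ran from 4861083 to 5263835, with 23 of 24 loci strong.

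**Figure D4:**
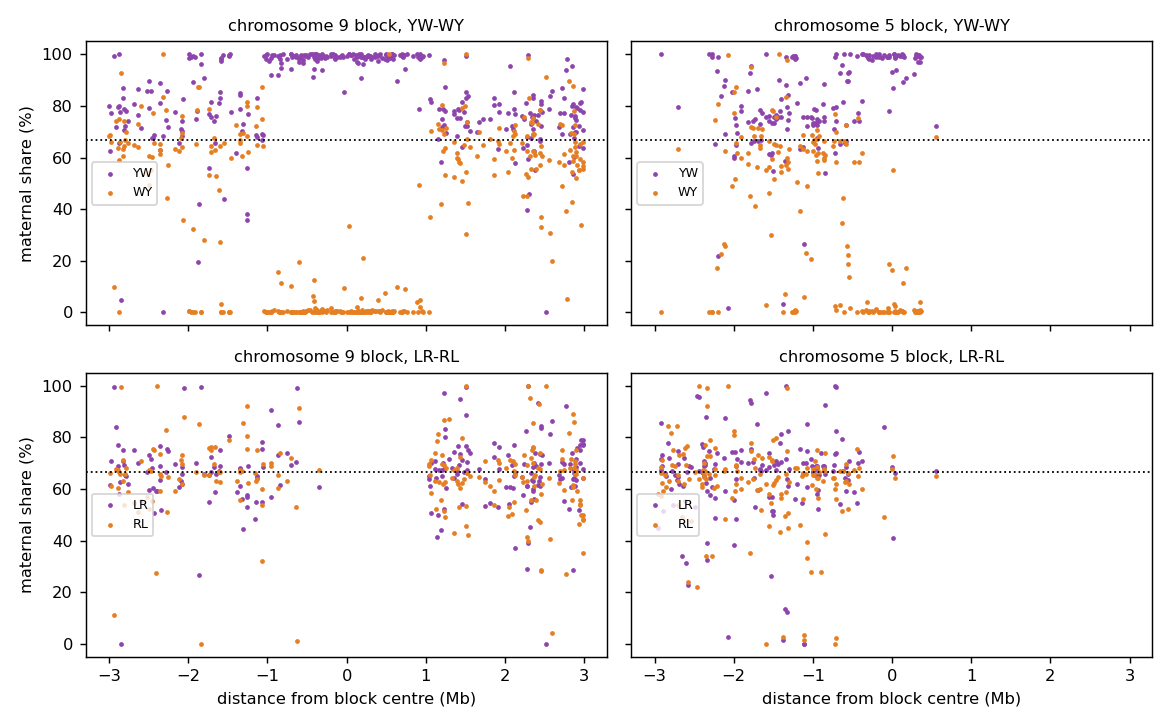
Maternal share (y axis, %) of each kept locus against its distance from the centre of the block (x axis, Mb) for the block with most loci of chromosome 9 (left) and of chromosome 5 (right), in YW and WY (top) and in LR and RL (bottom); the dotted line marks 2:1. Inside the blocks YW lies near 100% and WY near 0%, and few LR-RL loci were kept there.

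SNPs between the parents of the other cross set were sparse in some blocks and dense in others. The chromosome 9 block contained 582 SNPs in the table of YW and WY and 25 in the table of LR and RL. That is 279.7 SNPs per Mb for YW-WY and 12.01 for LR-RL, while the 12 chromosomes averaged 157.6 for YW-WY and 165.7 for LR-RL. The chromosome 5 block contained 227 SNPs in the YW-WY table and 9 in the LR-RL table. Over the 12 blocks, 7 had fewer LR-RL SNPs per Mb than the chromosomes averaged and 5 had as many or more, the highest at 729.4 per Mb on chromosome 2. In 2 blocks the LR-RL table listed more SNPs than the YW-WY table, with 9 for YW-WY and 70 for LR-RL on chromosome 2, and 18 for YW-WY and 550 for LR-RL on chromosome 5. Of the 288 block loci, 55 (19.1%) were kept in LR-RL, compared with 9975 (89.4%) of the 11155 loci outside. These 55 had medians of 68.6% in LR and 65.3% in RL, near the medians of all LR-RL loci, 67.1% in LR and 63.7% in RL. The leucyl-tRNA synthetase gene LOC_Os09g32650, which charges transfer RNA with leucine, had 3950 maternal of 3983 reads in YW and 0.0567% in WY, against 235 of 386 reads in LR and 198 of 294 in RL. The pentatricopeptide gene LOC_Os05g50950 had 510 of 517 reads in YW and 0.437% in WY, against 53 of 80 in LR and 38 of 59 in RL.

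The strain effect of the 2 cross sets was compared at each of the 10030 shared loci by a two-sided z test on the difference of the log odds ratios, adjusted by the Benjamini-Hochberg method over these loci and covering counting error only. Over all shared loci, 4337 (43.2%) leaned more to japonica in YW-WY than in LR-RL and 545 (5.43%) more to indica. Among the 55 shared block loci, 48 leaned more to japonica in YW-WY, with a median difference of 4.42 in the log2 strain effect averaged over the 2 crosses of a set, against 0.28 over all shared loci. The blocks had been chosen on the YW and WY shares that enter this difference, so the 48 loci only describe the choice.

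Some loci inside the blocks did not follow them. Of the 288, 20 were not strong japonica loci, and 13 of these 20 were weaker japonica calls. LOC_Os09g34930, a 3-ketoacyl-CoA synthase gene of fatty acid elongation with a single SNP, was read from the indica allele alone, with 0 of 22 maternal reads in YW and 47 of 47 in WY. The zinc finger gene LOC_Os09g26470 was the only parental call, maternal at 98.9% in YW and 90.4% in WY. The starch synthase gene LOC_Os05g45720 had 79.5% in YW and 63.4% in WY, and the polyprenyl synthetase gene LOC_Os05g46580 had 65.1% in YW and 74.7% in WY. Both of these had a single SNP and lay in a block of 1.94 Mb with only 12 kept loci.

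By function, loci were grouped by words in the annotation of the deposited table, and a locus can belong to more than 1 class. Call counts rise with depth, as 3.58% of loci with 40 to 99 reads over both crosses were parental calls against the medians and 21.8% of those with at least 10000 reads. Counts of a class are therefore read beside its depth and beside the shares over all kept loci, which were 3.36% maternal, 5.58% paternal, 17.5% japonica and 13.5% indica.

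**Figure D5:**
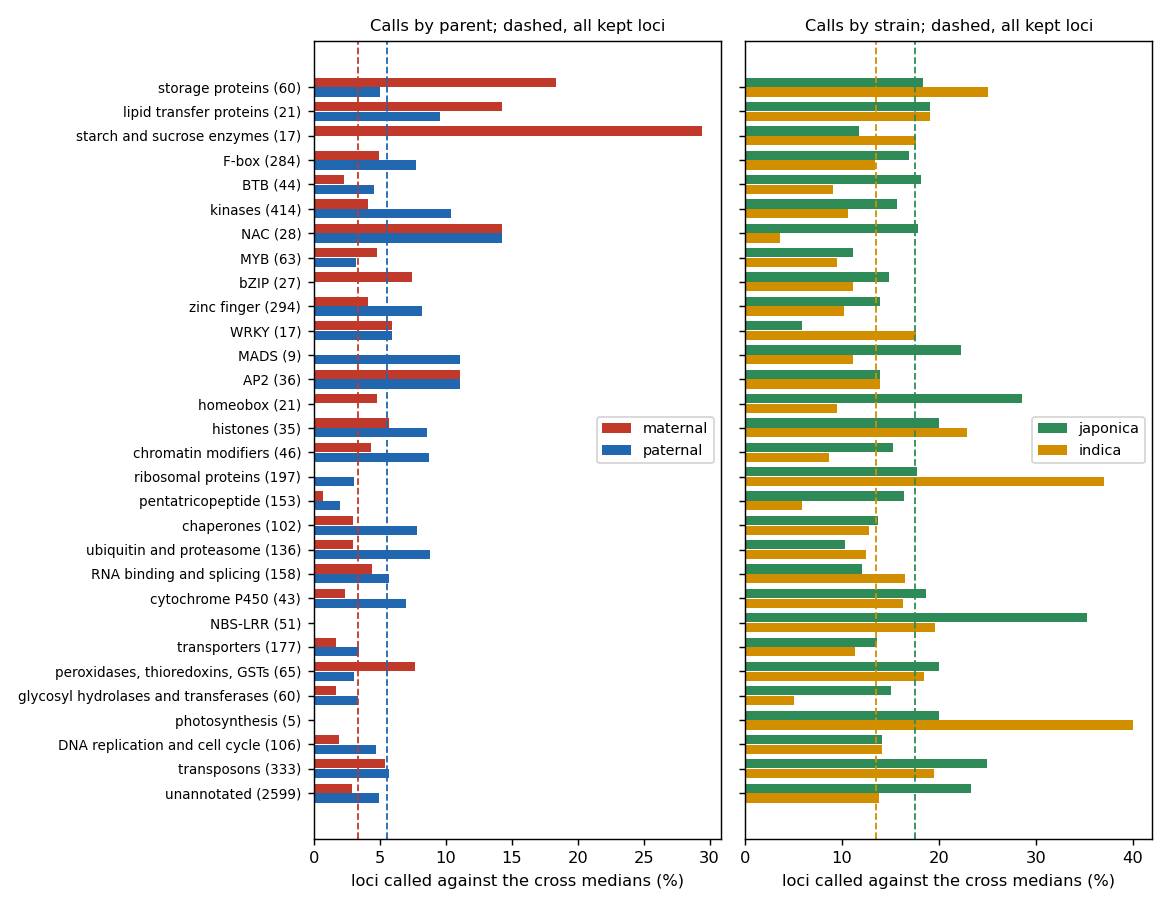
Percent of the loci of each function class (number of loci in brackets) called by parent (left) and by strain (right) against the cross medians; dashed lines give the percent over all 11443 loci. Kinases and F-box genes lie above the dashed line for paternal calls, ribosomal proteins far above it for indica calls, and no NBS-LRR locus has a parental call.

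Storage protein and starch loci had more maternal than paternal calls under both nulls. Of 60 storage protein loci, 11 (18.3%) were maternal and 3 (5.00%) paternal against the medians, and 10 and 3 against 2:1 (7 and 2 the same loci), with a median of 1170.5 reads in YW and 1421 in WY. A further 11 were japonica and 15 indica against the medians. By its words, the class also takes in lipid transfer proteins annotated as protease inhibitor, seed storage and LTP family, which are counted in their own class too. Among them, LTPL162 (LOC_Os11g40530), of a family of seed proteins that bind lipids, had 46917 maternal of 47074 reads in YW and 14813 of 14841 in WY. Among the 21 glutelin and prolamin loci, which are the main storage proteins, 6 were maternal, 1 paternal, 4 japonica and 8 indica against the medians. The paternal one, the glutelin gene LOC_Os01g55630, had 59.5% in YW and 44.4% in WY, yet its 6 SNPs ranged from 0.0526% to 100% in YW and from 0.0418% to 100% in WY. Reads of other glutelin genes can align there, and their part was not tested. The indica prolamin loci LOC_Os05g26359 and LOC_Os05g26400 both have SNPs listed from 15272311 to 15277979, so their counts are not separate. LOC_Os05g26250, without a call against the medians, has the same first and last SNP. Of 17 starch and sucrose enzyme loci, 5 (29.4%) were maternal and 0 paternal against each null, but only 3 were the same loci, with 2595 and 2621 median reads in YW and WY. The sucrose synthase gene LOC_Os06g09450 was maternal against the medians and japonica against 2:1, and LOC_Os07g42490 was indica against the medians and maternal against 2:1.

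Genes of starch making and sugar supply were also followed as a list of 21 loci, of which 14 had counts and all 14 were kept. Against the medians 8 were maternal, 0 paternal, 1 japonica and 3 indica, and against 2:1 6 were maternal, 0 paternal and 5 japonica. OsSWEET11 (LOC_Os08g42350), a sugar exporter that feeds the grain, had 695 maternal of 696 reads in YW and 324 of 327 in WY (adjusted p = 6.06e-59 against the medians, exact binomial test). OsSWEET15 (LOC_Os02g30910), of the same exporter family, had a milder share of 81.1% in YW and 77.1% in WY. The sucrose transporter OsSUT1 (LOC_Os03g07480) had no call, at 70.2% in YW and 66.4% in WY.

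The starch enzymes departed less. Starch synthase III (LOC_Os08g09230), which extends glucan chains, had 83.7% in YW (Wilson 95% interval 83.1 to 84.2) and 71.0% in WY (70.1 to 71.8). The branching enzyme gene LOC_Os06g51084 had 80.7% in YW and 69.3% in WY, and both were maternal under both nulls. With only the SNP with most reads, starch synthase III lost its maternal call against 2:1, at 81.8% in YW and 69.7% in WY (adjusted p = 0.057, exact binomial test), and OsSWEET15 lost its own, at 75% in YW and 71.4% in WY. For the ADP-glucose pyrophosphorylase large subunit gene LOC_Os08g25734, which makes the precursor of starch, 76.9% in YW and 64.6% in WY gave a maternal call against the medians and a japonica call against 2:1. The amyloplast ADP-glucose carrier BT1 (LOC_Os02g10800) had 67.9% in YW and 65.8% in WY, indica against the medians and japonica against 2:1. Its 5 SNPs ranged from 56.6% to 98.7% in YW and from 3.58% to 79.2% in WY. At such depth departures of a few percentage points pass the test, and their direction depends on the null.

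All 4 endosperm regulators on a short list were kept. NF-YC12 (LOC_Os10g11580), a subunit of a nuclear factor Y transcription complex, was maternal at 77.4% in YW and 97.7% in WY under both nulls, with 538 paternal reads of 23390 in WY. Its log2 odds lay only 0.187 above the median in YW, from 45036 reads, and 4.64 above it in WY. NF-YB1 (LOC_Os02g49410), a partner subunit, had 70.5% in YW and 64.8% in WY, indica against the medians and japonica against 2:1. RPBF (LOC_Os02g15350), a Dof factor that activates storage protein genes, was japonica at 94.6% in YW and 38.8% in WY, and its 7 SNPs ranged from 0.130% to 76.4% in WY. The bZIP factor gene LOC_Os07g08420 had 77.9% in YW and 66.5% in WY and was maternal against the medians alone.

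Of 6 Polycomb genes, whose complex places a silencing mark on histones, 5 were kept. OsFIE1 (LOC_Os08g04290) had 1218 maternal of 1232 reads in YW and 538 of 546 in WY. Its neighbour OsFIE2 (LOC_Os08g04270) had 76.0% in YW and 70.7% in WY, without a call against the medians and maternal against 2:1. OsEMF2a (LOC_Os04g08034) was maternal at 92.2% in YW (Wilson interval 89.1 to 94.5) and 82.8% in WY (76.5 to 87.7). The methyltransferase subunits OsCLF (LOC_Os06g16390) and OsiEZ1 (LOC_Os03g19480) had 79.6% and 80.5% in YW and 59.8% and 52.2% in WY, and both were japonica against 2:1 alone.

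Kinase loci had more paternal than maternal calls under both nulls. Of 414 kinase loci, 17 (4.11%) were maternal and 43 (10.4%) paternal against the medians, 2 and 14 of them strong, and 23 and 32 were called against 2:1, of which 9 and 31 had the same call against both. Their median depth, 367 reads in YW and 257 in WY, was close to that of all loci. Over all loci, paternal calls also outnumbered maternal ones against the medians, at 5.58% and 3.36%, but not against 2:1, at 3.73% and 5.99%. The CAMK-class kinase gene LOC_Os10g36710 had 28 maternal of 195 reads in YW and 1 of 114 in WY. Another, LOC_Os10g39420, was the leading maternal kinase, with 59651 of 61222 reads in YW and 69942 of 70946 in WY. Of 284 F-box loci, 14 were maternal and 22 paternal against the medians, 5 and 11 of them strong, but 22 were maternal and 18 paternal against 2:1, so their balance turned with the null. OsFBDUF48 (LOC_Os10g37540) had 20 maternal of 214 reads in YW and 0 of 120 in WY, while OsFBX353 (LOC_Os10g03870) on the same chromosome had 247 of 247 in YW and 146 of 147 in WY.

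Regulators of transcription and chromatin went both ways. Of 28 NAC loci, 4 were maternal and 4 paternal against each null, and 3 and 4 of them were so under both. The leading maternal NAC gene, LOC_Os05g34310, had 12700 of 12732 reads in YW and 12561 of 12612 in WY. Of 294 zinc finger loci, 12 were maternal and 24 paternal against the medians, and 22 and 15 against 2:1. The DNA methyltransferase gene LOC_Os05g04330 (chromosome 5, 1965885 to 1973478), whose class adds methyl groups to cytosine, had 100 maternal of 403 reads in YW and 0 of 235 in WY, with 6 SNPs from 15.2% to 36.0% in YW. The SWI/SNF-related gene LOC_Os03g51220, of a class that moves nucleosomes, was maternal at 86.6% in YW and 84.9% in WY. The AP2 gene LOC_Os06g42990 was paternal with 231 of 700 maternal reads in YW and 1 of 429 in WY. A MADS-box gene, OsMADS65 (LOC_Os01g69850), was the only parental call of 9 MADS loci, with 50.3% in YW and 23.9% in WY.

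Ribosomal protein loci had few parental calls against the medians. Of 197 ribosomal protein loci, 0 were maternal and 6 paternal against the medians, while 35 were japonica and 73 (37.1%) indica. Against 2:1 both balances turned, with 13 maternal, 2 paternal, 98 japonica and 16 indica calls. Over all loci, 5.99% were maternal and 3.73% paternal against 2:1. Their medians were 73.0% in YW (quartiles 70.1 and 76.0) and 63.9% in WY (59.1 and 68.3). The shares were not uniform, as 7 loci were strong japonica and 3 strong indica calls against the medians. LOC_Os10g20990, a ribosomal protein S12 gene with a single SNP, had 0 of 307 maternal reads in YW and 341 of 341 in WY. The class was deep, with median reads of 4471 in YW and 3523 in WY. The paternal ribosomal gene farthest from the medians, LOC_Os08g06560, had 62.5% in YW and 38.2% in WY from 2 SNPs that ranged from 0% to 100% in YW. Of 153 pentatricopeptide loci, which act on organelle RNA, 1 was maternal and 3 paternal against the medians, from a lower median of 232 reads in YW and 122 in WY. Other classes of common cell functions did not share this low count against the medians. There, 4 maternal and 12 paternal (8.82%) of 136 ubiquitin and proteasome loci were called, and 3 and 8 (7.84%) of the chaperone loci.

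Immune receptor and transposon loci had larger shares of strain calls than all kept loci had. Of 51 NBS-LRR loci, 0 were maternal and 0 paternal against the medians, and 1 maternal and 0 paternal against 2:1. Of these 51, 18 (35.3%) were japonica and 10 (19.6%) indica, 8 and 7 of them strong, from a median of only 150 reads in YW and 174 in WY. At that depth, departures of a few percentage points were not detectable. Of 333 transposon loci, 18 (5.41%) were maternal and 19 (5.71%) paternal, beside 3.36% and 5.58% over all loci, and 83 (24.9%) were japonica and 65 (19.5%) indica. Strong strain calls took 16.2% (japonica) and 7.81% (indica) of the transposon loci, with 7.03% and 1.98% over all loci. The 2599 loci annotated only as expressed or hypothetical proteins had 76 maternal (2.92%) and 128 paternal calls (4.92%). These shares were near the 3.36% and 5.58% over all loci. The class held 326 of the 804 strong japonica calls against the medians, 12.5% of its loci beside 7.03% over all loci.

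SNPs of a locus differed by more than their counts allow. At the 1970 loci with at least 5 SNPs of at least 50 reads in each cross, the SD between the SNPs of a locus had a median of 4.19 percentage points in YW and 5.58 in WY, while binomial counting gives 2.79 and 3.53. The intervals and p-values above therefore understate the error of a locus share. At the level of single SNPs, the authors' deposited table gave a false discovery rate under 0.05 in YW at 35214 SNPs, in WY at 28442 and in both at 21919 (37.1%).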

How the data were processed

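RNA of rice endosperm was sequenced from pooled grains. Per the file headers, the authors deposited whole-number counts of reads with the maternal and the paternal allele per SNP, with 1 column of each per cross, so the 2 libraries of YW and of WY are pooled. The authors deposited beside them, for each SNP and cross, a p-value with its false discovery rate. Tools named in the submitters' processing notes, without an order, are GATK 3.5, SAMtools 0.1.16, Bowtie2 2.2.1 and Trimmomatic 0.32. No genome build is named in the sources used here. The lowest read total of a listed SNP is 11 in a cross, which limits the loci seen.

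Counts were summed per locus, so a read over several SNPs is counted at each, and 483 SNP positions are listed under more than 1 locus. A locus needed 20 reads or more in both crosses. Exact two-sided binomial tests, Benjamini-Hochberg adjustment and Wilson 95% intervals were computed with Python 3.11.15, scipy 1.17.1 and pandas 2.3.3. A count of 0 allows a share of up to 3 reads of the total. Intervals, floors and p-values cover counting error only, and generalise over no plants. In simulated data for these 11443 loci against 2:1, the calls recovered 48 of 50 maternal and 50 of 50 paternal loci set at 20-fold, with 0 false calls among 11243 under counting noise and 686 with an added spread between crosses.

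Named loci were the 10 of each call that were strong under both nulls and had the largest smaller departure from the cross medians (log2 odds, with 0.5 added), the leading locus toward each parent per chromosome and function class, and members of short lists. Block loci, neighbouring pairs and loci outside this rule were chosen after their values had been seen. The members and lists were chosen with earlier results of these data known. Function classes come from the annotation in the table, and the symbols of list members (OsSWEET11, OsFIE1 and others) from common usage. Alternatives were the null, the read minimum, the SNPs used, the loci kept, the fold of a strong call, the adjusted p threshold and the authors' false discovery rate.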

Additional observations from a re-analysis of the deposited data

How the results depend on the processing

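No paired analysis was possible because the columns pool the libraries of a cross, and leaving out a library was not run for the same reason. The alternatives by reference allele were not run, since the table does not tell which parent carries the listed reference allele. Against the medians of the crosses, calls numbered 384 maternal, 2008 japonica, 1542 indica and 124 strong paternal. With at least 100 reads per locus and cross, strong calls fell to 576 japonica and 87 indica and the WY median was 63.2%. With only the SNP with most reads, maternal calls numbered 388 and the WY median was 63.4%, and with the median of the SNP shares the YW median was 75.3%. Without transposon and unannotated loci there were 372 indica calls and 70 maternal, 489 japonica and 86 indica strong calls, with medians of 74.8% in YW and 63.2% in WY. Strong paternal calls numbered 155 at 3 times the null odds and 17 at 10 times. Maternal calls numbered 404 at an adjusted p under 0.001 and 428 by the authors' deposited false discovery rate. Without the blocks, an alternative chosen after seeing the data, the medians were 74.9% in YW and 63.3% in WY, and japonica calls of chromosome 9 fell to 20.7%. The other summary counts stayed within 1.5 times under every alternative run. By function class, 17 of 30 maternal and 13 of 30 paternal counts moved by more than that between the nulls. The cause of these changes was not tested, apart from the smaller numbers of loci.

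Many named loci were chosen for strong calls under both nulls, which sets part of their agreement between the nulls. Over all kept loci, 242 of the 685 maternal calls against 2:1 were also maternal against the medians. Among 112 named loci, 94 had the same outcome against the medians as against 2:1. A call was gained at 8, lost at 4 and changed to another at 6, 3 of them from japonica to indica. These 3 were LOC_Os02g10800, LOC_Os06g12450 and LOC_Os02g49410, whose smaller departures were 0.184, 0.0531 and 0.118 on the log2 scale. With only the SNP with most reads, 14 lost their call, 3 changed to another and 2 gained one.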
